A study of Mus musculus with 2 samples.

Results

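Mir22 is a single microRNA gene, 1 of the 2202 microRNA genes counted in 2 small RNA libraries from mouse heart. It was chosen by its level, its rank and its ratio between the libraries, as read from earlier results of these data, so those values are given as a description with no test. Both libraries, described as biological replicates 1 and 2, come from heart tissue of adult females aged 8 to 10 months with the strain label 5xFAD/CAST. In the first of these lines, 5xFAD, neurons express mutant human amyloid and presenilin transgenes, as a model of Alzheimer disease; the other, CAST, is a wild-derived inbred strain. The labels do not say how the line and the strain were combined or whether the transgene was present in these animals. They form 1 group, with no untreated, wild-type or diseased group beside it, so no condition is compared. The labels give separate sample identifiers but 1 donor identifier for both, so the spread between the libraries may be technical.

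MicroRNAs are cut from hairpin precursors, loaded into Argonaute proteins and guided to messenger RNAs mainly through the seed, bases 2 to 8 of the mature strand. miR-22 is abundant in heart and skeletal muscle. In mice, loss of miR-22 blunts the growth of the heart under stress, and forced expression in heart muscle cells enlarges them; its described targets include the deacetylases Sirt1 and Hdac4.

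The sequences of Mir22 are shown because they define what was counted and how far its reads can be confused with those of another gene. RefSeq (build GRCm38.p6) places the hairpin of 95 bases on the plus strand at chr11:75463716-75463810, the position that the annotation used for the counts also gives (build mm10, release M21). The arms are in capitals in the hairpin, and the seed is in capitals in each mature strand, written 5′ to 3′.
Mir22 hairpin: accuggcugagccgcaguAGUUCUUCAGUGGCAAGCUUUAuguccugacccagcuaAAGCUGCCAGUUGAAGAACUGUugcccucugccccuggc
miR-22-5p: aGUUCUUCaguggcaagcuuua
miR-22-3p: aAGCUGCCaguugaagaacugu
Counts were made per gene, so reads of the 5p and 3p arms were added together and their proportion was not measured here. Neither seed was shared by another of the 1738 mature strands in the RefSeq table, which had an entry for 1018 of the 2202 genes. The letters of the miR-22-3p seed occurred elsewhere in 4 mature strands of other genes, at other positions. The most similar of these, miR-3966, begins with them, in capitals here.
miR-3966: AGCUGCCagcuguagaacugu
Aligned at those letters, miR-3966 matched miR-22-3p at 19 of 21 bases. The differences were U11C and A14U, counted from 1 at the 5′ end of miR-22-3p, with the base of miR-22-3p first. The Mir3966 gene had 0 reads in both libraries. The longest run of bases that the Mir22 precursor shared with any other microRNA precursor of the annotation was 12, with Mir6982, and no other precursor shared a run of 18. Reads at several loci were given to no gene in these tables; the rest of the genome was not searched for copies of Mir22.

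Mir22 lies in an exon of a noncoding RNA. The whole hairpin falls in exon 2 of the host gene Mir22hg, at chromosome 11, 75463693 to 75463857 in the transcript Mir22hg-202 and to 75464029 in Mir22hg-201. The same exon is exon 2 of Tlcd2-203, a noncoding transcript of the protein-coding gene Tlcd2. Both coding transcripts of Tlcd2 begin at 75468079, downstream of the hairpin, which therefore overlaps no coding sequence and no annotated UTR.

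**Figure D1:**
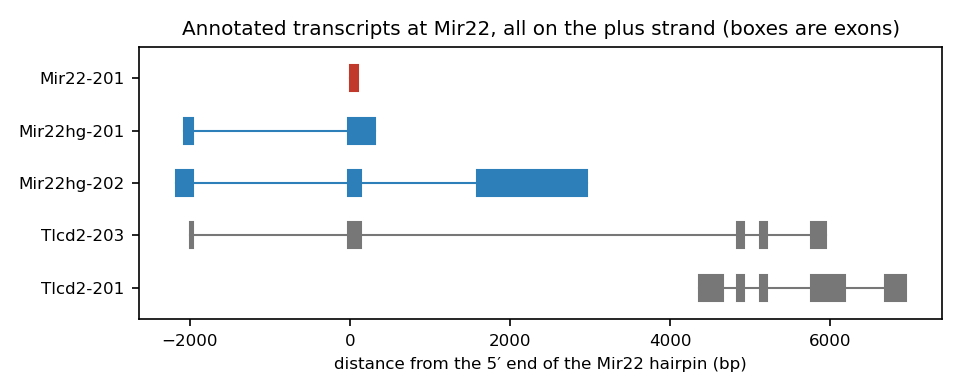
Annotated transcripts around Mir22, drawn to scale as distance in base pairs from the 5′ end of its hairpin; boxes are exons and lines are introns, and the other Tlcd2 transcripts are not drawn. The hairpin sits in exon 2 of both Mir22hg transcripts and of Tlcd2-203, and the coding transcript Tlcd2-201 starts 4363 bp downstream.

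By reads assigned to a single gene, Mir22 was among the most abundant heart microRNA genes in both libraries, but at very different levels. Replicate 1 had 228378 Mir22 reads among 4186560 reads assigned to microRNA genes, which is 54550 counts per 1000000 assigned reads (CPM; exact Clopper-Pearson 95% interval 54333 to 54768). Replicate 2 had 26138 among 2877511, or 9084 CPM (8974 to 9194). Replicate 1 was the higher library, and the intervals, which cover counting error only, did not overlap. As a share of assigned reads Mir22 took 5.46% in replicate 1 and 0.908% in replicate 2, a mean of 3.18% ± 3.21 (SD, n = 2). It was therefore 1 assigned read in 18.3 in replicate 1 and 1 in 110 in replicate 2. Over all reads of each table, including those that were unmapped, at several loci or outside genes, its share was 1.73% and 0.293%. The opposite strand of the Mir22 locus had 0 reads in replicate 1 and 1 in replicate 2, so the strand used for counting did not alter its own count.

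Mir22 stood at rank 4 of the 640 genes with reads in replicate 1 and at rank 19 of 583 in replicate 2. By mean CPM of assigned reads it stood at rank 11, with 31817 ± 32150 CPM (SD, n = 2). An SD larger than the mean leaves its place in the order poorly set: 17 other genes had CPM ranges that overlapped the span from 9084 to 54550. Only Mir378a and Mirlet7b were above that span in both libraries. Reads at several loci, 42.4% and 43.2% of all reads in replicates 1 and 2, were given to no gene. Genes that share sequence with another locus may therefore stand too low in this order. The gene next above Mir22 was Mir99a, a member of the mir-99 family, with 37147 and 30158 CPM in replicates 1 and 2. The gene next below, Mir26b, had 28360 and 31445. Both lay wholly inside the span of Mir22, as did 10 genes in all, so Mir22 could not be ranked above or below them. In replicate 2, 15 genes that Mir22 exceeded in replicate 1 exceeded it, and 0 did the reverse. Mir23b had 50745 CPM in replicate 1 and 92953 in replicate 2, Mirlet7g 52668 and 60941, and Mir139 35652 and 53610. Mir140, a cartilage microRNA that lies in Wwp2, stood far below Mir22 in replicate 1 with 1651 CPM and just above it in replicate 2 with 10419.

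Of the 18 genes closest to Mir22 in level, 17 differed by less than 2-fold between the libraries. For this comparison the counts were scaled with TMM (trimmed mean of M-values), which sets library totals so that most genes have similar values, and a log2 ratio is replicate 2 over replicate 1. Mir22 had a log2 ratio of -2.51 (exact 95% interval -2.53 to -2.50, counting error only), that is 5.71-fold lower in replicate 2. The 18 other genes with a mean CPM within 4-fold of Mir22 had log2 ratios from -1.83 to 0.94, with a median of 0.25. Of these 18, 11 were higher in replicate 2. Over all genes other than Mir22 with a mean CPM of 100 or more, 78 of 131 were higher. Mir22 had the lowest ratio of the genes within 4-fold of its level. With Mir22 counted, 2 of the 19 (10.5%) differed by more than 2-fold, and the other was Mir126a, the endothelial microRNA, with 174314 and 46780 CPM. Among the 132 genes with a mean CPM of 100 or more, 18 (13.6%) differed by more than 2-fold in either direction and 14 (10.6%) were more than 2-fold lower in replicate 2. Within those 132, Mir195a alone had a lower ratio than Mir22. These shares place the Mir22 difference among the genes of these libraries; since Mir22 was chosen on the same ratio, they are no evidence about it.

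**Figure D2:**
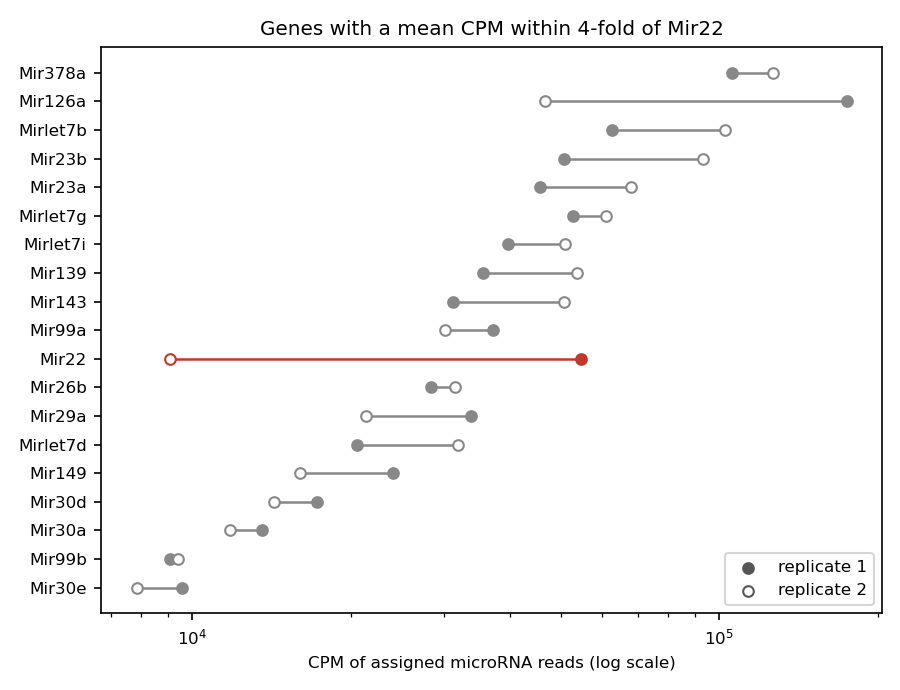
CPM (x axis, log scale) of the 19 genes with a mean CPM within 4-fold of Mir22, in replicate 1 (filled) and replicate 2 (open), 1 point per library joined by a line and ordered by mean. Mir22, in red, spans 54550 to 9084 CPM, while its neighbours Mir99a and Mir26b stay between 28360 and 37147.

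Counted in reads, Mir22 had the second largest difference of all genes, after Mir126a. Replicate 2 minus replicate 1 was -45467 CPM, which was 9.59% of the summed absolute CPM differences over all genes, against 26.9% for Mir126a and 8.90% for Mir23b, which was higher in replicate 2. Because Mir126a took so much of replicate 1, ratios of Mir22 to other genes inside each library were also taken; they need no library total. There were 0.516 Mir22 reads per Mir378a read in replicate 1 and 0.0719 in replicate 2. Per read of Mirlet7g there were 1.04 and 0.149. Per read of Mir499, a cardiomyocyte microRNA hosted by the myosin gene Myh7b, there were 11.4 and 2.51, and per read of Mir208a, hosted by Myh6, 33.3 and 8.46. Replicate 1 was higher in each case, by 7.18-fold against Mir378a and 3.94-fold against Mir208a at the extremes of these 4 genes. Against Mir126a the difference was smallest, with 0.313 and 0.194 Mir22 reads per Mir126a read, a 1.61-fold difference.

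**Figure D3:**
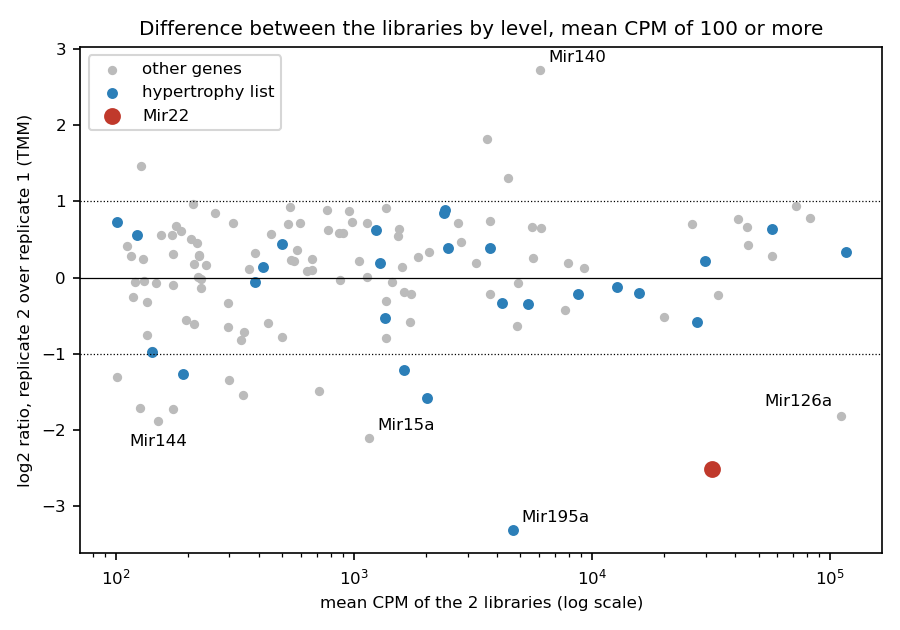
TMM-scaled log2 ratio of replicate 2 over replicate 1 (y axis) against mean CPM (x axis, log scale) for the 132 genes with a mean CPM of 100 or more, 1 point per gene; dotted lines mark 2-fold. Mir22, in red at -2.51, lies below every gene of the list in blue except Mir195a at -3.33.

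The 5 genes of that level set whose log2 ratio was nearest to that of Mir22 were Mir15a, Mir144, Mir126a, Mir152 and Mir210. Likeness here is only the absolute difference in 1 ratio over 2 libraries. Mir15a, of the Dleu2 locus and known for repressing Bcl2 and cell cycle genes, had 1903 CPM in replicate 1 and 418 in replicate 2 (log2 ratio -2.11). Mir144, a microRNA of red cell precursors, had 240 and 61.9 CPM (-1.88). Mir152, in an intron of Copz2 and known to target a DNA methyltransferase, had 270 and 77.8 CPM (-1.72). Mir210, induced by low oxygen, had 195 and 56.6 CPM (-1.71). All were higher in replicate 1, and all had a ratio closer to 0 than Mir22. Mir195a, next by this distance, had the more extreme ratio, with 8500 and 806 CPM. Their mature strands are shown, with the seed in capitals, to compare them with miR-22-3p.
miR-15a-5p: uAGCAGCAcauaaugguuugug
miR-144-3p: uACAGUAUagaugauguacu
miR-126a-3p: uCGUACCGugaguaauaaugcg
miR-152-3p: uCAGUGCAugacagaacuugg
miR-210-3p: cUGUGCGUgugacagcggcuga
These 5 strands have 5 different seeds, none of them that of miR-22. The arms of Mir22 averaged 43.2% GC, against a median of 48.2% over the 118 genes of the 132 with a RefSeq mature sequence, and 27 of these were lower. Across those 118 genes, which share both libraries and are not independent replicates, Spearman's rho of GC content with the log2 ratio was 0.01.

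Of the 5 other microRNA genes within 1 Mb of Mir22, 2 had more than 3 reads in a library, and neither was lower in replicate 2 by 2-fold. Mir132 and Mir212, a pair induced by CREB and described as driving hypertrophy through Foxo3, lie upstream on the same strand, with starts at 75173682 and 75173388 (-290.034 and -290.328 kb from the start of Mir22). Mir132 had 1678 reads in replicate 1 and 1056 in replicate 2, or 401 and 367 CPM, a log2 ratio of -0.06. Mir212 had 58 and 74 reads (13.9 and 25.7 CPM; log2 ratio 0.96). Mir6926 had 3 and 0 reads, and Mir3971 and Gm47300 had 0 in both libraries, where a count of 0 allows up to 0.717 CPM in replicate 1 and 1.04 in replicate 2 (3 counts).

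Genes that overlap an exon of a noncoding host, and lie inside no protein-coding gene on their strand, differed in direction between the libraries. Mir22 itself falls outside this rule, since its hairpin also lies within the gene Tlcd2. Of 21 such genes with a mean CPM of 100 or more, 14 were higher and 7 lower in replicate 2, with a median log2 ratio of 0.43 and a range from -1.59 to 0.92. The most abundant were Mirlet7b in Lncppara with 62441 and 102435 CPM, Mirlet7i with 39754 and 50869, Mirlet7d with 20501 and 31856, and Mir30d with 17257 and 14296. The lowest ratio of the 21 was that of Mir214, in Dnm3os. The split was similar over all 131 genes of that level other than Mir22, with 78 higher and 53 lower in replicate 2. Their median was 0.20, with a wider range from -3.33 to 2.73.

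Among the listed microRNA genes that promote growth of the heart, Mir22 held a large part of the assigned reads in replicate 1. It held a smaller part in replicate 2. It was set beside a list of 44 microRNA genes described in the literature on cardiac hypertrophy, 19 that promote growth of the heart, Mir22 included, and 25 that restrain growth or fibrosis. Mir22 supplied 41.1% of the CPM of the 19 in replicate 1 and 9.20% in replicate 2. These shares may be too high, since reads at several loci were assigned to no gene. Of the 18 others, 7, Mir23a among them, have 18 consecutive bases in common with some other precursor. Copies of Mir22 outside the microRNA precursors were not searched for, so the shares are not strict upper limits. Of the 18 other promoting genes, 13 had a mean CPM of 100 or more. Of those, 3 were more than 2-fold lower in replicate 2, 0 more than 2-fold higher and 10 in between, with a median log2 ratio of -0.06 against 0.20 for all genes of that level. Shares of 3 in 13 and 14 in 132 (10.6%) rest on few genes and were not tested against each other.

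Among the promoting genes, the 3 that were lower are Mir195a, Mir214 and Mir24-2. Mir195a, whose overexpression causes heart failure in mice, had 35586 reads in replicate 1 and 2320 in replicate 2 (log2 ratio -3.33). Mir214, of the Dnm3os transcript, had 3091 and 976 CPM (-1.59). Mir24-2 had 275 and 109 CPM (-1.26), while Mir24-1, which encodes the same mature strand, had 102 and 142 (0.55). Both Mir24 loci share sequence with each other, so their counts hold only reads unique to 1 locus. The other 10 promoting genes with a mean CPM of 100 or more stayed within 2-fold. Mir23a, a target of the calcineurin and NFAT pathway, had 45740 and 67881 CPM. Mir155, an inflammatory microRNA, had 3321 and 4122 CPM, and Mir21a, made by stressed cardiac fibroblasts, had 2199 and 2749. Mir499 had 4787 and 3618 CPM and Mir208a 1638 and 1074, both a little higher in replicate 1. Below the minimum stood Mir208b, with 41.8 and 22.2 CPM, Mir212 and the 3 Mir199 genes. Of these, Mir199a-2 had 20 reads in replicate 1 and 2 in replicate 2, Mir199b 44 and 16, and Mir199a-1 had 0 in both.

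Most of the restraining genes that could be read lay within 2-fold, as did most genes of their level. Over the 132 genes with a mean CPM of 100 or more, 18 (13.6%) differed by more than 2-fold. Of the 25 restraining genes, 13 had a mean CPM of 100 or more. Of those, 12 lay within 2-fold, with a median log2 ratio of 0.14. Mir29c, of a family that represses collagen genes, was the exception, with 2292 and 939 CPM (-1.21). Mir378a had 105618 and 126274 CPM, Mir26b 28360 and 31445, Mir29a 33711 and 21331, and Mir30a 13572 and 11806. The 12 members below the minimum included Mir1a-1, Mir1a-2, Mir133a-1 and Mir133a-2, the muscle microRNAs that restrain cardiac growth, with between 3 and 304 reads per library. Also below the minimum, Mir9-3 had 3 reads in replicate 1 and 63 in replicate 2, and Mir26a-1 had 20 and 262. Both were higher in replicate 2, while Mir29b-2, with 209 and 76 reads, went the other way (log2 ratio -0.85). In all, 27 of the 44 list members have 18 consecutive bases in common with some other precursor. The Mir1a and Mir133a genes are among them, and Mir22 is not. Since reads at several loci were left unassigned, the counts of those 27 are lower limits, and whether a gene such as Mir23a was above or below Mir22 in true level cannot be read from them.

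**Figure D4:**
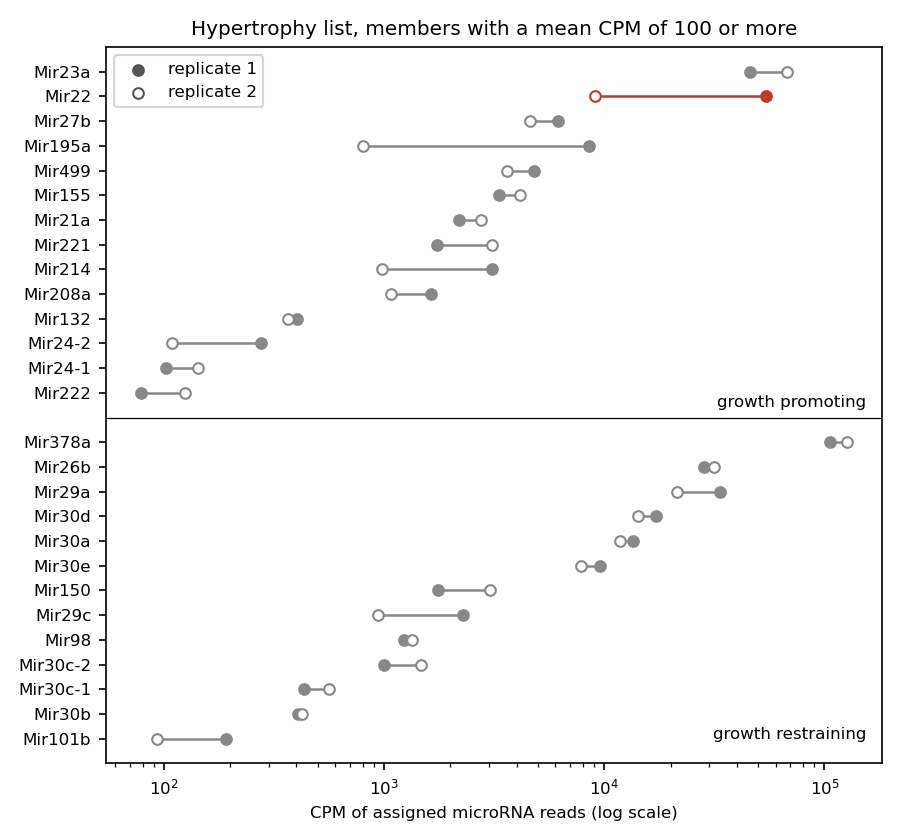
CPM (x axis, log scale) of the 27 list members with a mean CPM of 100 or more, growth promoting above and growth restraining below, in replicate 1 (filled) and replicate 2 (open). Mir22, in red, has 54550 CPM in replicate 1 and 9084 in replicate 2; Mir195a is the only member with a wider span on this scale, and most others stay within 2-fold.

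Markers of the cell types in the tissue moved in different directions beside Mir22. All 7 cardiomyocyte genes had reads in both libraries. Together they held 6544 CPM in replicate 1 and 4789 in replicate 2 (log2 ratio of the sums -0.38), nearly all from Mir499 and Mir208a. The Mir1a and Mir133a genes of this class share sequence with other precursors, so their counts are lower limits. The size of this sum is therefore not comparable with those of the other classes. The 3 endothelial genes summed to 176135 and 49984 CPM (-1.75), nearly all from Mir126a, while the other 2, Mir221 and Mir222, were higher in replicate 2. The 2 smooth muscle genes summed to 32911 and 56334 CPM (0.85), and the 5 leukocyte genes to 5998 and 8349 (0.55). The 3 erythroid genes summed to 1747 and 1328 CPM (-0.32), but their members differed: Mir451a had 515 and 168 CPM (-1.54) and Mir144 240 and 61.9 (-1.88), both lower in replicate 2 as Mir22 was, while Mir486 had 992 and 1097 (0.22). The 8 epithelial genes, of tissue outside the heart, summed to 330 and 256 CPM (-0.29), again with members on both sides. Mir215 had 421 reads in replicate 1 and 17 in replicate 2 (log2 ratio -4.02), Mir192 186 and 20 (-2.60), Mir200b 206 and 23 (-2.55) and Mir200a 37 and 6 (-2.01), ratios of the size of that of Mir22 on far fewer reads. Mir203 was higher in replicate 2, with 295 and 531 reads (1.46), and the other 3 lay within 2-fold. No gene of these lists was at 0 in both libraries. In bulk tissue, fewer cells of a type and less RNA per cell cannot be told apart, and the part of cell makeup in the Mir22 difference was not tested.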

How the data were processed

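Each library has 1 deposited table of whole-number counts, the reads that the authors gave to each microRNA gene, on build mm10 with annotation release M21, per the readmes deposited with them. Aligner, version and settings: not given in the sources used here. Counts on the annotated strand were taken. The 4 rows that name no gene were left out of totals: in replicates 1 and 2 they held 19.0% and 17.5% (unmapped), 42.4% and 43.2% (several loci), 6.94% and 7.11% (outside genes) and 0% (ambiguous) of 13233055 and 8930289 reads. The intervals cover the counting error of reads only. Reads carry no molecular identifiers, so repeated copies of a molecule could not be told apart, and the intervals leave this out. The counts of the 2 libraries were not copies of each other (chi-square per degree of freedom 830 over 709 genes). This value cannot tell technical libraries of 1 donor from 2 animals.

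All 2202 identifiers matched the annotation. CPM was computed over assigned reads. TMM factors came from edgeR 4.0.16 (filter with a minimum count of 10) and alternative size factors from DESeq2 1.42.0, in R 4.3.3; Python 3.11.15 and scipy 1.17.1 gave the rest. No test was run, since the design holds 1 group and Mir22 was chosen on its ratio. The ratio step was run on simulated counts with known ratios. Those counts held counting error alone, so the run says nothing about the spread between the libraries. Its interval check allowed for the median error, so a bias in scaling would not show in that check. The gene, lists and naming rule were chosen with earlier results of these data known. Named genes were the 5 next above and below Mir22 by level and the 5 nearest by ratio, those within 1 Mb, those sharing its seed, list members, and examples by level of genes in noncoding exons. Mir140, Mir6982, Mir3966 and the genes used for ratios inside a library were named after their values were seen. The strand column, denominators, scaling, filter, level window and leaving out each library were varied.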

Additional observations from a re-analysis of the deposited data

How the results depend on the processing

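Mir22 was lower in replicate 2 under each scaling tried. The TMM log2 ratio of -2.51 became -2.59 with totals of assigned reads, -2.66 with DESeq2 size factors (a shift of -0.15 for every gene), -2.56 over all reads, -2.77 against the median of genes of similar level, -2.63 with TMM on unfiltered genes, -2.57 regardless of strand and, an alternative added after the data were seen, -2.18 relative to Mir499. Each lies outside the counting interval of the main value. The mean of 31817 CPM became 91962 when the denominator left out Mir22 and the other 9 most abundant genes, 44949 regardless of strand, 10093 over all reads and 9084 to 54550 CPM from 1 library; with 2 libraries this far apart, the SD is too wide to judge these moves by. The count of genes of similar level past 2-fold, 2 of 19, was 1 of 11 within 2-fold of the level and 6 of 36 within 10-fold. It was 18 of 132 at 100 CPM or more and 1 of 16 regardless of strand. It stayed 2 of 19 with totals or DESeq2 size factors. Regardless of strand, the deposited tables leave Mir126a almost no reads. The assigned totals were then 2906600 and 2307809 reads, against 4186560 and 2877511 on the annotated strand. In replicate 2 this loss exceeds the 134611 reads of Mir126a, so other genes lost reads too. By mean CPM, Mir22 then stood at rank 9. Within 10-fold, Mir22 had the second lowest ratio. Its share of the summed CPM differences, 9.59%, was 17.98% regardless of strand and 8.93% with TMM scaling. For counts and this share, a move beyond 1.5-fold was taken as a change. With 1 library left out no ratio exists. With 2 libraries the spread itself is poorly known.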

Other observations

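Several of the genes with the lowest ratios lie on chromosome 11, as Mir22 does; this was looked at after the ratios were seen. Counting genes of at least 100 CPM on average, 4 of the 8 lowest log2 ratios are on chromosome 11, namely Mir195a, Mir22, Mir144 and Mir152. Apart from Mir22, 14 genes of that level lie on the chromosome, of which 4 (28.6%) were more than 2-fold lower in replicate 2, against 9 of 117 (7.69%) on the other chromosomes. The fourth is Mir451a, the cluster partner of Mir144, with 515 CPM in replicate 1 and 168 in replicate 2, so these 4 genes hold 3 separate loci. The rest of the chromosome did not move together: Mir497, the cluster partner of Mir195a, had a log2 ratio of -0.78, Mir338 of 0.01 and Mir10a of 0.14, and Mir744, in an intron of Map2k4, was higher in replicate 2 with 2633 and 6222 CPM (log2 ratio 1.31). The median over the 14 genes was -0.02 and over the other 117 genes 0.22. No test was run on this grouping.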
